A study of Mus musculus with 6 samples.

Results

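The genes examined were 9 transcription factors and cofactors by which T cells set and refine their lineage: *Foxp3*, *Runx1*, *Runx2*, *Runx3*, *Cbfb*, *Gata3*, *Tbx21*, *Rora* and *Prdm1*. They were chosen by gene name among 37305 genes of an expression table. Levels are FPKM, fragments corrected for the length of the transcript and the size of the library, and the read count behind a value is unknown. Regulatory T (Treg) cells hold immune responses in check. They were sorted as CD4+CD25+ cells from spleens of C57BL/6 mice, and their RNA was sequenced. Controls were 3 libraries from mice labelled JUNBFl/Fl, which carry *Junb* flanked by loxP sites. The *Junb*-deficient group held 3 libraries labelled Cd4cre JUNBFl/Fl, which carry the same alleles and a Cre recombinase under the *Cd4* promoter. This promoter is active in thymocytes that give rise to all conventional CD4 and CD8 T cells, so the deletion in these mice is not restricted to Treg cells, and the controls carry no Cre. The labels give no age or sex, no stimulation before RNA extraction is described in them, and whether libraries came from different mice is not stated. The p values therefore measure the spread between samples.

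Foxp3 is a forkhead protein that defines the Treg lineage and is needed to keep it. It works in complexes with Runx proteins, which bind DNA through the Runt domain and gain affinity and stability by pairing with Cbfb, a partner that does not bind DNA itself. Treg cells can also use factors that direct helper T cells, T-bet (from *Tbx21*) of Th1 cells, Gata3 of Th2 cells and the ROR nuclear receptors of Th17 cells, while Blimp-1 (from *Prdm1*) is a zinc finger repressor of effector Treg cells, plasma cells and exhausted T cells. JunB is a basic leucine zipper subunit of AP-1 and binds DNA as a dimer with proteins such as BATF.

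The genotype labels and the libraries were checked first. Controls 1 to 3 held 921, 298 and 256 FPKM of *Junb*, and *Junb*-deficient libraries 1 to 3 held 180, 49.1 and 37.8 FPKM, without overlap of the genotypes. Depth, estimated from the lowest values relative to control 1, was between 0.351 and 0.818 in the other libraries. Control 1 and *Junb*-deficient 1 stood apart from the other 4 libraries, and of 11781 genes tested 2225 (18.9%) had both of them above the others and 2745 (23.3%) had both below. T cell and Treg markers, led by *Folr4*, *Cd3g* and *Cd3d*, summed to between 2136 and 3322 FPKM in controls and between 2084 and 2580 in *Junb*-deficient libraries, with the libraries numbered 1 lowest in each genotype. Not every marker of this list followed its sum, since *Cd4* and *Lrrc32* were highest in the library numbered 1 of each genotype. Markers of other cells were far lower but reached their highest sums in the libraries numbered 1 for B cells (at most 62.1 FPKM), plasma cells (97.0), myeloid cells (272), dendritic cells (288) and erythroid cells and platelets (35.3). CD8 T and NK cell markers did not follow this order and ran from 74.0 to 144 FPKM. Between genotypes, at an unadjusted limma p under 0.05 and a log2 difference over 0.5, *Gzma* rose among 9 tested CD8 T and NK markers, *Lrrc32* rose and *Ctla4* fell among 10 T cell and Treg markers, and none of the 7 B cell, 3 plasma cell, 8 myeloid, 9 dendritic and 3 erythroid or platelet markers tested passed. Over all genes tested 4.56% passed in either direction. The call of *Gzma* was lost without control 1 or 2, without *Junb*-deficient 1 or 2 and with both libraries numbered 1 left out, and that of *Ctla4* without *Junb*-deficient 3 and with quantile scaling.

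"Rose" and "fell" denote genes past the cutoffs of the study, which asked for p under 0.05 without adjustment together with more than 0.5 on the log2 scale, here applied to a limma test on log2(FPKM + 1). The calls are those of this limma test and not the study's own, whose numbers of genes differ. Differences are *Junb*-deficient minus control. All 9 genes passed the filter, a mean of at least 1 FPKM over the 6 libraries. In the limma test 1 of the 9 was called, *Prdm1*, which fell, against 537 of 11781 genes (4.56%) called in either direction and 340 (2.89%) called lower. In this fit of all 6 libraries no gene of the whole table passed an adjusted p of 0.05 in limma (0% of 11781, with 636 at an unadjusted p under 0.05), and among the 9 the adjusted p ran from 0.834 to 0.995. The median log2 difference was 0.08 over the 9 genes and -0.05 over all genes tested. For 8 of the 9 the log2 difference lay within 0.5 of 0, as it did for 10051 of 11781 genes. In 2 of the 9, *Cbfb* and *Prdm1*, the 3 *Junb*-deficient libraries lay below all 3 controls, where 6.36% of all genes were separated in this direction and 10.9% in either.

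**Figure D1:**
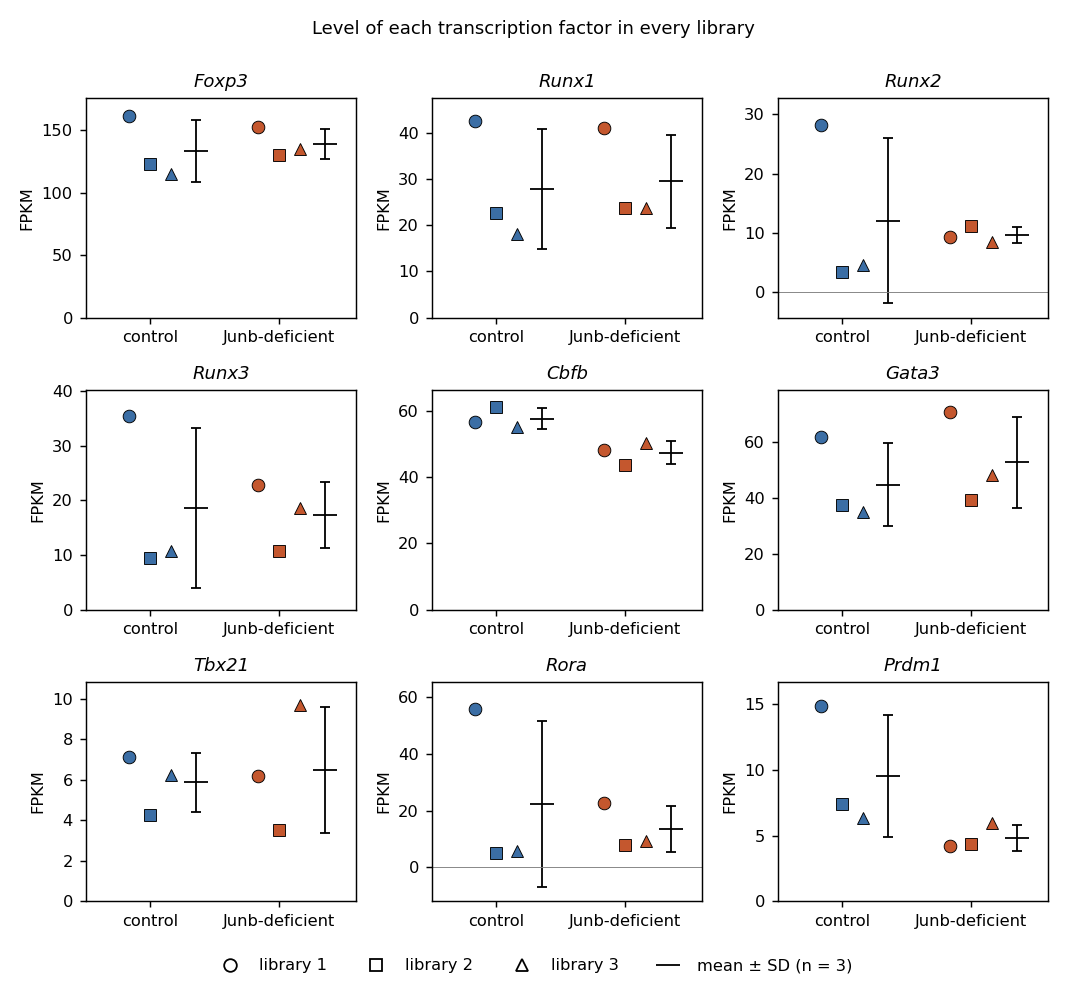
FPKM of each of the 9 genes (one panel each, linear axis) in control (blue) and *Junb*-deficient (orange) libraries, with the library number as the symbol and the mean ± SD (n = 3) beside the points. *Cbfb* and *Prdm1* are the panels in which the groups do not overlap, and *Foxp3*, *Runx1*, *Runx3*, *Gata3* and *Rora* are those in which both libraries numbered 1 lie above the other 4.

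*Foxp3* was the most abundant of the 9 and differed little between genotypes. It (ENSMUSG00000039521.5) is a plus-strand gene of chromosome X (mm9 positions 7156802 to 7172369). Controls 1 to 3 held 161, 123 and 115 FPKM and *Junb*-deficient libraries 1 to 3 held 153, 130 and 135 FPKM. The groups overlapped, and the libraries numbered 1 were the highest of each genotype. Means were 133 ± 24.7 FPKM in controls and 139 ± 12.0 FPKM in *Junb*-deficient libraries (SD, n = 3). The log2 difference was 0.08 (SE 0.21, 95% interval -0.40 to 0.56), and limma gave an unadjusted p of 0.719. In every library *Foxp3* stood between the 92.8th and 96.3rd percentile of the genes tested. Parts of its exons overlap *Ppp1r3f* and *Ccdc22* on the other strand and *4930524L23Rik* on the same strand, which were at 7.34 to 14.8, 13.5 to 24.2 and 2.39 to 8.21 FPKM, far below *Foxp3* in each library. In bulk RNA, fewer cells that express a gene and less RNA per cell cannot be told apart, and this holds for every value here.

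Genes that control or accompany *Foxp3* were followed as a list of 28, all of which were tested. *Ikzf4*, which encodes Eos, an Ikaros family corepressor of Foxp3, rose from 21.3 ± 2.32 to 31.7 ± 3.05 FPKM (SD, n = 3, log2 difference 0.55), with all 3 *Junb*-deficient libraries above the controls. The call of *Ikzf4* was lost without control 1, with *Junb*-deficient 3 left out and with both libraries numbered 1 left out. None of the 28 fell and 27 did not pass the test, where 4.56% of all genes were called in either direction. The other genes with the smallest p were *Ezh2*, the histone H3K27 methyltransferase, at 25.6, 23.6 and 26.3 FPKM in controls and 20.2, 15.9 and 19.0 in *Junb*-deficient libraries (log2 difference -0.44), and *Bcl11b*, a zinc finger factor of T cell identity, at 67.7, 49.9 and 44.6 against 83.0, 66.3 and 72.0 (log2 difference 0.46). Of the 28 genes 20 had a positive difference, and the list median was 0.26, beside -0.05 over all genes. With the library number as a block 4 of the 28 rose, where 3.58% of all genes did, among them *Stat5a*, which relays IL-2 signals to *Foxp3*, and the NF-kB subunit *Rel*, and with both libraries numbered 1 left out 7 rose, where 6.74% of all genes did. *Rel* was at 71.0 FPKM in control 1 and 101 FPKM in *Junb*-deficient 1, against 9.46 to 21.3 FPKM in the other 4 libraries.

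The Runx genes varied more between libraries than *Foxp3*, from 2.34-fold between the lowest and highest library for *Runx1* to 3.73-fold for *Runx3* and 8.52-fold for *Runx2*, against 1.40-fold for *Foxp3*. Each has a RefSeq promoter window, from 250 bases before to 50 bases after an annotated start (build GRCm38.p6), that holds the same 18-base run. The run is shown because it carries the letters AACCACA, a site of the Runx proteins themselves, 2 times in tandem on 1 strand with starts 8 bases apart. The 3 stretches below read 5′ to 3′ along the gene, with the shared run in capitals, and each matched mm9 exactly and at 1 place on its chromosome, as given.
Runx1 (minus strand, chr16:92826270-92826299): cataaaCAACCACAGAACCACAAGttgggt
Runx2 (minus strand, chr17:44951532-44951561): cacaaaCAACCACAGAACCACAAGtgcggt
Runx3 (plus strand, chr4:134676418-134676447): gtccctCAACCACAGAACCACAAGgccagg
With the start base counted as 1, the run begins at base 27 in *Runx1* and at base 22 in *Runx2*. In *Runx3* it begins 136 bases before the start base. The tandem was found, on either strand, in 5 of 32851 promoter windows (0.0152%), of which these are 3, while 5.27% of windows held AACCACA at least once on either strand. The spacing of 8 bases is that of the run itself and no other was searched, so the share of the tandem is not an independent background. The copies do not overlap each other or any other motif searched. A match of letters is a description, not evidence of binding, and *Runx1* and *Runx3* also have a second annotated window without AACCACA.

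*Runx1*, which is required in T cells to sustain *Foxp3* and represses *Il2*, did not differ between genotypes beyond the spread. *Runx1* (ENSMUSG00000022952.9) is a minus-strand gene of chromosome 16 (mm9 positions 92601712 to 92826311). Its level in controls 1 to 3 was 42.5, 22.7 and 18.1 FPKM, against 41.1, 23.7 and 23.7 FPKM in *Junb*-deficient libraries 1 to 3. The genotypes overlapped and the libraries numbered 1 were almost equal to each other and well above the rest. The genotypes differed by 0.13 on the log2 scale (SE 0.35, 95% interval -0.70 to 0.95, limma unadjusted p = 0.732), and the block narrowed the interval to -0.26 to 0.51 without a call.

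*Runx3*, which silences *Cd4* in CD8 T cells and acts with T-bet in Th1 cells, was also highest in the libraries numbered 1 of each genotype. *Runx3* (ENSMUSG00000070691.4) is a plus-strand gene of chromosome 4 (mm9 positions 134676567 to 134733905). Controls 1 to 3 held 35.4, 9.49 and 10.8 FPKM of it and *Junb*-deficient libraries 1 to 3 held 22.7, 10.8 and 18.6 FPKM. Within numbers 2 and 3 the *Junb*-deficient library was at 114% and 172% of its control and within number 1 at 64.2%, so the direction differed between numbers. On the log2 scale the difference was 0.09 (SE 0.50, 95% interval -1.07 to 1.26).

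*Runx2*, the Runx factor of bone formation that plasmacytoid dendritic cells also make, had 1 control far above all other libraries. *Runx2* (ENSMUSG00000039153.9) is a minus-strand gene of chromosome 17 (mm9 positions 44632936 to 44951746). The controls, 1 to 3, were at 28.2, 3.31 and 4.55 FPKM and the *Junb*-deficient libraries, 1 to 3, at 9.23, 11.1 and 8.44 FPKM. Control 1 was 7.18 times the mean of the other controls, whereas *Junb*-deficient 1 was 0.943 times the mean of the other *Junb*-deficient libraries. The 3 *Junb*-deficient libraries thus lay close together, above controls 2 and 3 and below control 1. Over all 6 libraries the log2 difference was 0.25 (SE 0.66, 95% interval -1.30 to 1.80). Without control 1 it was 1.11 (limma unadjusted p = 0.00140, adjusted p = 0.128) and *Runx2* rose, in a setting where 6.73% of genes were called higher. With both libraries numbered 1 left out it was 1.13 (unadjusted p = 0.00109, adjusted p = 0.0499), where 6.74% were called higher. Markers of dendritic cells moved with this pattern in part. Their sum over 10 genes, none at 0 in every library, was 288, 99.7 and 122 FPKM in controls 1 to 3, against 168, 100.3 and 102 FPKM in *Junb*-deficient libraries 1 to 3. Most of the sum in the libraries not numbered 1 was *Bst2*, which was at 65.0 to 102 FPKM over the 6 libraries. *Siglech*, a surface lectin of plasmacytoid dendritic cells, was at 55.8 FPKM in control 1, 19.5 in *Junb*-deficient 1 and at most 1.91 in the others. The part of dendritic cells in the *Runx2* level was not tested. A second, shorter gene model that also carries the name *Runx2* and shares exons with it was at most at 0.175 FPKM and was not used.

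*Cbfb*, the shared partner of the Runx proteins, was as even as *Foxp3* across libraries (1.40-fold between the lowest and highest), and its level in *Junb*-deficient cells lay below that of controls without passing the test. *Cbfb* (ENSMUSG00000031885.7) is a plus-strand gene of chromosome 8 (mm9 positions 107694574 to 107741886). Controls 1 to 3 held 56.6, 61.0 and 54.9 FPKM, and *Junb*-deficient libraries 1 to 3 held 48.1, 43.5 and 50.3 FPKM. The groups did not overlap. Means were 57.5 ± 3.17 FPKM and 47.3 ± 3.46 FPKM (SD, n = 3), and the *Junb*-deficient library was at 84.9%, 71.3% and 91.6% of the control of its number. The log2 difference was -0.28 (SE 0.16, 95% interval -0.65 to 0.09, limma unadjusted p = 0.122, adjusted p = 0.834), short of the 0.5 that the study required. It was negative in each of the 17 other fits, from -0.32 to -0.14, and in none of them did it reach 0.5.

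The composition of the Runx pool was then asked, since shares within a library do not depend on the scaling between libraries. *Runx1* made up 40.1%, 63.9% and 54.2% of the summed Runx FPKM in controls 1 to 3, against 56.2%, 51.9% and 46.7% in *Junb*-deficient libraries 1 to 3. It was the largest share in all 6 libraries. *Runx2* held 26.6%, 9.34% and 13.6% in controls and 12.6%, 24.4% and 16.7% in *Junb*-deficient libraries, and *Runx3* held between 23.7% and 36.6%. Mean shares differed between genotypes by -1.10 points for *Runx1*, 1.40 for *Runx2* and -0.30 for *Runx3*, all within the spread (2-sided exact permutation p = 0.9, 0.8 and 1, all 1 after Benjamini-Hochberg adjustment over the 3, where 0.1 is the smallest that 3 against 3 libraries allow). The summed Runx level was 106, 35.5 and 33.5 FPKM in controls and 73.0, 45.6 and 50.7 FPKM in *Junb*-deficient libraries (exact permutation p = 1). *Cbfb* exceeded that sum in controls 2 and 3, by 1.72 and 1.64 times, and was below it or level with it in the other 4 libraries, at 0.533 times in control 1 and 0.658, 0.954 and 0.992 times in *Junb*-deficient 1, 2 and 3 (exact permutation p = 0.4 between genotypes).

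**Figure D2:**
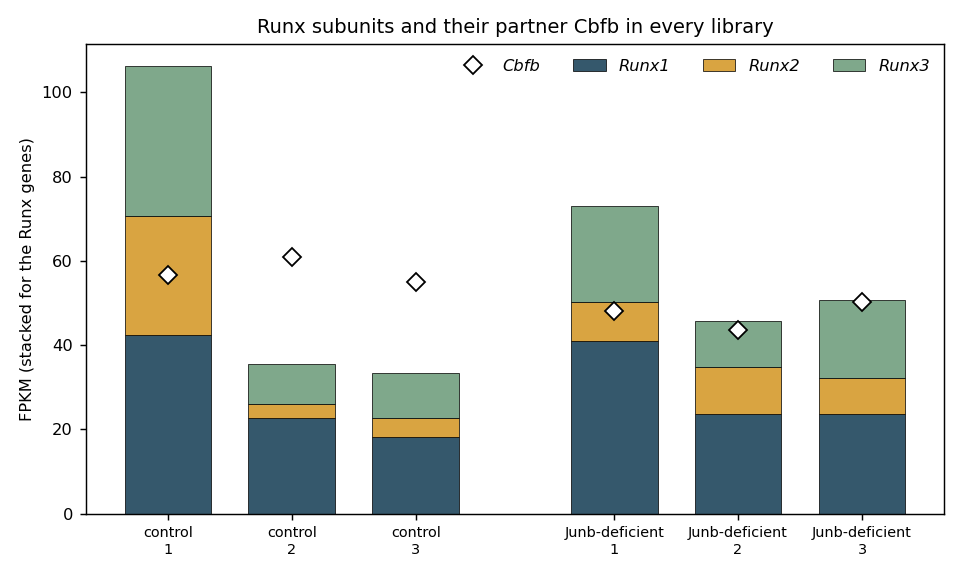
Stacked bars give the FPKM of *Runx1*, *Runx2* and *Runx3* in each of the 6 libraries, and open diamonds the FPKM of *Cbfb*. The Runx sum is highest in control 1 (106 FPKM) and *Junb*-deficient 1 (73.0 FPKM), and the diamond stands above the bar in controls 2 and 3.

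Of 16 genes that Runx proteins regulate or that act as their cofactors, 1 fell, none rose and 15 did not pass. Over all genes tested 2.89% fell. *Itgae*, the gene of the integrin CD103, which Runx3 is known to drive in CD8 T cells, fell from 61.2, 17.7 and 22.9 FPKM in controls 1 to 3 to 8.89, 10.9 and 10.4 FPKM in *Junb*-deficient libraries 1 to 3. The genotypes did not overlap, and the log2 difference was -1.46 (SE 0.42, limma unadjusted p = 0.00955, adjusted p = 0.834). This call was kept in each of the 17 other fits. *Cd4*, which Runx complexes silence in CD8 T cells, was at 241, 141 and 139 FPKM in controls and 226, 205 and 207 FPKM in *Junb*-deficient libraries (log2 difference 0.34, not called). The corepressor *Cbfa2t2* (0.32) and the factor *Myb* (0.33) had the next smallest p and were not called. The list median was 0.07.

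Among the helper lineage factors, *Gata3* was the most abundant, and none of the 3 was called in the limma test over all 6 libraries. *Gata3*, the zinc finger factor of Th2 cells that also supports Treg cells at barrier tissues, lies on the minus strand of chromosome 2 (ENSMUSG00000015619.9, 9778705 to 9811661). Its level in controls 1 to 3 was 61.9, 37.4 and 35.0 FPKM, against 71.1, 39.4 and 48.3 FPKM in *Junb*-deficient libraries 1 to 3. Each *Junb*-deficient library was above the control of its number, at 115%, 105% and 138%, but the groups overlapped. The log2 values differed by 0.24 (SE 0.30, 95% interval -0.46 to 0.94, limma unadjusted p = 0.445), and with the block the interval was -0.13 to 0.62.

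Genes of the Th2 program were followed as a list of 16, of which 11 were high enough to be tested. *Ccr3*, *Ccr4* and *Pparg* fell, where 2.89% of all genes did, none rose and 8 did not pass. The chemokine receptor *Ccr3* was at 9.31, 2.43 and 4.06 FPKM in controls and 0.722, 0.708 and 1.48 FPKM in *Junb*-deficient libraries, without overlap (log2 difference -1.54), and kept its call in each of the other fits in which it was tested, being under the filter at a mean of 5 FPKM. *Ccr4*, a receptor for homing to skin, was at 45.0, 14.2 and 20.2 against 8.77, 10.1 and 14.3 FPKM (log2 difference -1.05), and lost its call without control 1, *Junb*-deficient 1, *Junb*-deficient 2 or both libraries numbered 1, with no filter and with the length correction. *Pparg*, a nuclear receptor of adipose tissue Treg cells, was at 3.14, 1.19 and 1.72 against 0.908, 0.266 and 0.577 FPKM (log2 difference -0.90), lost its call without control 3, without *Junb*-deficient 2 or 3 and with the length correction, and was under the filter without control 1. *Il4*, the signature cytokine, was at 1.28, 4.95 and 11.0 FPKM in controls and 2.66, 4.86 and 11.0 FPKM in *Junb*-deficient libraries, so that the libraries numbered 3 were the highest of both genotypes. *Il5*, *Il9* and *Il13* were under the filter. The list median was -0.57, beside -0.05 over all genes tested. The list did not move as a whole, since 4 of the 11 tested genes had a positive difference. Among them were *Il4ra* (0.60) and *Stat6* (0.33), neither called in the unpaired fit.

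*Tbx21* was among the least abundant of the 9, and its values overlapped widely. The gene of T-bet, which drives Th1 cells and *Cxcr3*, lies on the minus strand of chromosome 11 (ENSMUSG00000001444.2, 96959385 to 96976645). Controls 1 to 3 held 7.15, 4.28 and 6.21 FPKM and *Junb*-deficient libraries 1 to 3 held 6.19, 3.51 and 9.71 FPKM. Libraries numbered 2 were the lowest in both genotypes and *Junb*-deficient 3 was the highest of all. Genotypes differed by 0.05 on the log2 scale (SE 0.34, 95% interval -0.75 to 0.86). Of 17 Th1 genes 15 were tested, of which *Cxcr3* fell, none rose and 14 did not pass, where 2.89% of all genes fell. *Cxcr3*, a receptor by which Th1-type Treg cells enter inflamed tissue, was at 45.6, 45.6 and 55.3 FPKM in controls and 19.4, 22.2 and 48.8 FPKM in *Junb*-deficient libraries (log2 difference -0.79). *Junb*-deficient 3, the library highest in *Tbx21*, was also the highest of its group in *Cxcr3* and overlapped the controls. The controls did not share this order, with control 1 highest in *Tbx21* and control 3 in *Cxcr3*. CD8 T and NK cell markers had their highest sum, 144 FPKM, in *Junb*-deficient 3 as well, and their part in these levels was not tested. With 1 library left out, the *Cxcr3* call held only without *Junb*-deficient 3, and it was also lost with no filter, either scaling, no trend or the length correction. *Il12rb2*, a receptor chain for IL-12, was at 2.39, 0.930 and 1.75 against 3.41, 1.45 and 4.55 FPKM and the cytokine *Ifng* at 20.4, 14.3 and 18.1 against 18.8, 10.8 and 12.5 FPKM, with log2 differences of 0.58 and -0.33 that were not called. The list median was -0.06.

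*Rora*, which encodes an orphan nuclear receptor that promotes Th17 cells and is found in Treg cells of skin, varied most of all. *Rora* (ENSMUSG00000032238.10) is a plus-strand gene of chromosome 9 (mm9 positions 68501593 to 69236053). Controls 1 to 3 were at 56.0, 4.97 and 5.82 FPKM and *Junb*-deficient libraries 1 to 3 at 22.7, 8.03 and 9.42 FPKM. Control 1 was 10.4 times the mean of the other controls and *Junb*-deficient 1 was 2.61 times the mean of the other *Junb*-deficient libraries. The order of genotypes was reversed between numbers, since the *Junb*-deficient library was at 40.6% of the control within number 1 and at 162% within numbers 2 and 3. The log2 difference over all libraries was -0.02 (SE 0.85, 95% interval -2.02 to 1.98). Without control 1 it was 1.03 (limma unadjusted p = 0.0422, adjusted p = 0.206) and with both libraries numbered 1 left out 0.60 (unadjusted p = 0.0155, adjusted p = 0.113), and *Rora* rose in both. Over all genes 6.73% and 6.74% were called higher in these 2 settings. With 2 libraries left in each genotype, an exact permutation test cannot go below 0.333. The separation of the groups for *Rora* and *Runx2* there therefore adds no support to these calls.

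Of 17 genes of Th17 cells and of ROR regulation, 12 were tested, *Ccr6* and *Stat3* rose, none fell and 10 did not pass. Over all 11781 genes tested 197 rose. *Stat3*, which transmits IL-6 and IL-23 signals, rose from 78.9, 57.8 and 54.9 FPKM in controls to 125, 76.7 and 104 FPKM in *Junb*-deficient libraries (log2 difference 0.66). *Ccr6*, the receptor for CCL20, was at 27.7, 16.7 and 18.4 against 23.3, 42.1 and 38.9 FPKM (log2 difference 0.70), with *Junb*-deficient 1 inside the range of the controls. Both lost their call without control 2, control 3 or *Junb*-deficient 3, *Stat3* also without *Junb*-deficient 1 and *Ccr6* also without *Junb*-deficient 2, with no filter and with no trend. *Il6ra* had the next smallest p (log2 difference 0.37, not called). *Il17a* was at 0.560 FPKM in control 1 and 0.165 FPKM in *Junb*-deficient 1, was listed at 0 in the other 4 libraries and was under the filter. The list median was 0.26.

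*Prdm1* was the one factor that passed the thresholds in the unpaired limma fit used here. The study itself, from its own processing of this RNA experiment, counted *Prdm1* among effector Treg genes that depend on BATF and not on JunB. The values below are thus no independent check of that verdict. In stimulated Treg cells the study also found binding of BATF and of the factor IRF4 near *Prdm1* unchanged without JunB. Here *Prdm1* fell from 14.9, 7.38 and 6.37 FPKM in controls 1 to 3 to 4.20, 4.33 and 5.97 FPKM in *Junb*-deficient libraries 1 to 3. The groups did not overlap, although *Junb*-deficient 3 was only just below control 3. Means were 9.54 ± 4.64 FPKM and 4.83 ± 0.986 FPKM (SD, n = 3), and the *Junb*-deficient library was at 28.3%, 58.6% and 93.7% of the control of its number. On the log2 scale the difference was -0.78 (SE 0.32, 95% interval -1.52 to -0.04), with an unadjusted p of 0.0415 and an adjusted p of 0.834 in limma. The call was held with the replicate block, where 10.8% of all genes were called (unadjusted p = 0.0258, adjusted p = 0.283). The *Prdm1* call was lost without control 1 (log2 difference -0.44), without *Junb*-deficient 1 (-0.70) or 2 (-0.72) and with both libraries numbered 1 left out (-0.37). It was also lost with no filter on low values (-0.78) and with median-ratio scaling (-0.74). The difference was negative in all of these fits, with unadjusted limma p values from 0.0594 to 0.134. Plasma cells also express *Prdm1*. Their 5 markers in the table summed to 70.9, 50.4 and 50.6 FPKM in controls and 97.0, 50.3 and 54.8 FPKM in *Junb*-deficient libraries, led by *Xbp1*, and *Igj*, the immunoglobulin joining chain, was highest in *Junb*-deficient 1, at 31.3 FPKM. Their part in the *Prdm1* level was not tested.

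*Prdm1* (ENSMUSG00000038151.6) is a minus-strand gene of chromosome 10 (mm9 positions 44156983 to 44248307). The 250 bases before its RefSeq start, which lies inside this gene model, are shown because this window was the only one of 12 windows of the 9 genes with the AP-1 letters TGANTCA. The stretch reads 5′ to 3′ along the gene. The capitals near the 5′ end are GTAAACA, the forkhead letters TGTTTAC on the opposite strand. Those near the 3′ end are TGAATCA, which matches the AP-1 letters with A at the free position N.
Prdm1 (minus strand, chr10:44178555-44178804): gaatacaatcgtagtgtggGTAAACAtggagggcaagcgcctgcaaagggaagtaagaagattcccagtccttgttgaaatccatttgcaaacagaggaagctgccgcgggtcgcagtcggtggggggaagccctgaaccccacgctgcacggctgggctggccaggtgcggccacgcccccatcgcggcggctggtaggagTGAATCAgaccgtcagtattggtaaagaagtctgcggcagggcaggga
The AP-1 letters lie 48 to 42 bases and the forkhead letters 231 to 225 bases before the start, and they overlap neither each other nor another motif searched. TGANTCA, which reads the same on both strands, was in 7.81% of all promoter windows and TGTTTAC, on either strand, in 3.65%. These matches of letters are a description too, not evidence of binding. The GATA letters AGATAA (11.2% of windows), the T-box letters GGTGTGA (3.98%) and the ROR letters AGGTCA (16.3%) were also searched on both strands, and were found in 1 window (*Foxp3*), none and 2 windows (*Foxp3* and *Runx2*) of these genes.

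Genes of follicular helper T cells and others that Blimp-1 opposes were followed as a list of 15. Of 13 tested, *Cxcr5* rose, *Pdcd1* fell and 11 did not pass, where 4.56% of all genes were called in either direction. *Cxcr5*, the receptor that guides cells into B cell follicles, rose from 8.23, 18.1 and 19.2 FPKM in controls to 22.1, 30.5 and 30.8 FPKM in *Junb*-deficient libraries, all above all controls (log2 difference 0.90), and lost its call without *Junb*-deficient 2 or 3 and with no filter. *Pdcd1*, the gene of the inhibitory receptor PD-1, fell from 35.6, 37.8 and 42.1 FPKM to 27.6, 23.6 and 25.9 FPKM, also without overlap (log2 difference -0.56), and lost its call without control 3, with quantile scaling and with the correction for exon length, also with the block. *Bcl6*, the repressor that opposes Blimp-1, was at 9.43, 10.4 and 9.06 FPKM in controls and 19.5, 7.04 and 10.7 FPKM in *Junb*-deficient libraries, so only *Junb*-deficient 1 stood clearly above the rest (log2 difference 0.23, not called). *Tcf7* had the next smallest p (log2 difference 0.35, not called). The list median was 0.03.

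**Figure D3:**
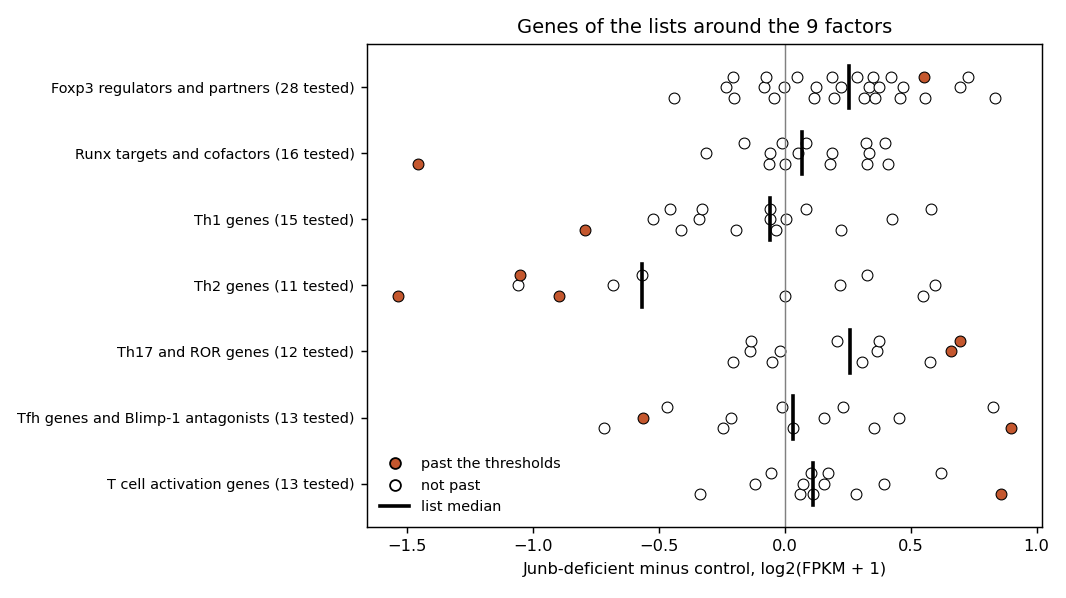
Each point is the log2 difference (*Junb*-deficient minus control, log2(FPKM + 1) scale) of 1 tested gene of a list, filled where it passed the thresholds, and the bar is the list median. The lowest filled points are *Ccr3* (-1.54) among the Th2 genes and *Itgae* (-1.46) among the Runx targets, and the highest of these 7 lists, which leave out the markers of other cells, is *Cxcr5* (0.90).

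The interval around each difference shows what these libraries could and could not resolve. It was narrowest for *Cbfb* (-0.65 to 0.09) and *Foxp3* (-0.40 to 0.56) and widest for *Rora* (-2.02 to 1.98) and *Runx2* (-1.30 to 1.80). With the library number as a block, no gene of the 9 other than *Prdm1* was called.

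**Figure D4:**
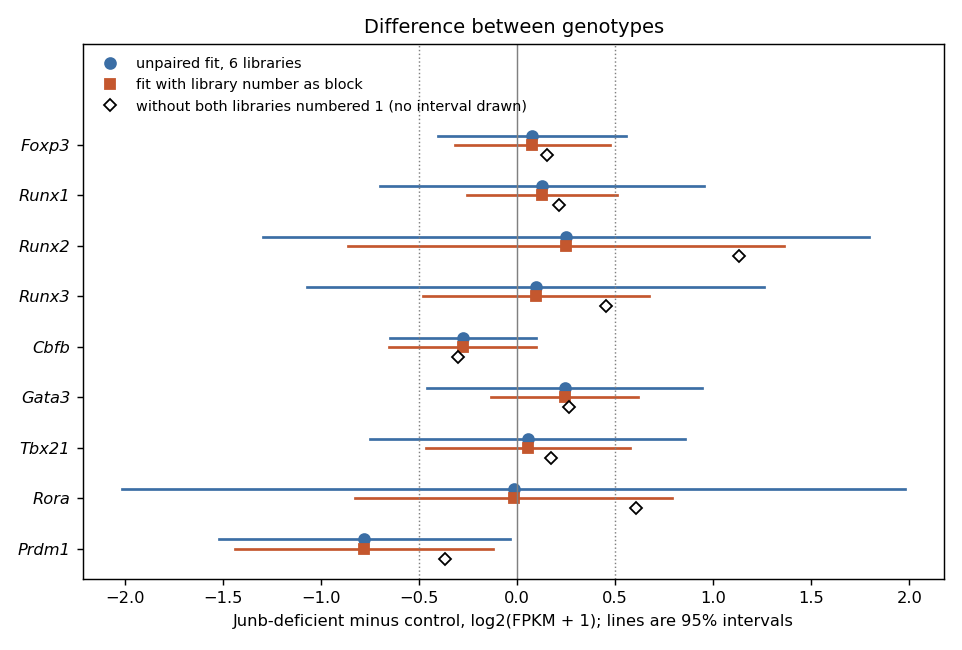
Log2 difference of each gene with its 95% interval in the unpaired limma fit (circles) and in the fit with the library number as a block (squares), and the difference without both libraries numbered 1 (open diamonds), with dotted lines at the 0.5 threshold in each direction. The intervals of all genes but *Prdm1* include 0, and the diamonds of *Runx2* (1.13) and *Rora* (0.60) lie beyond the upper dotted line.

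The level of 5 of the 9 genes (*Foxp3*, *Runx1*, *Runx3*, *Gata3* and *Rora*) was higher in both libraries numbered 1 than in the other 4, beside 18.9% of all genes, and none was lower in both, beside 23.3% of all genes. Against the mean of the other libraries of their genotype, control 1 and *Junb*-deficient 1 were at 1.36 and 1.15 times for *Foxp3*, 2.08 and 1.73 times for *Runx1* and 1.71 and 1.62 times for *Gata3*. For *Runx3* they were at 3.49 and 1.55 times. *Prdm1* and *Tbx21* were higher in control 1, at 2.16 and 1.36 times, but not in *Junb*-deficient 1, at 0.816 and 0.936 times, and *Cbfb* was even, at 0.977 and 1.02 times. Of 13 genes induced by T cell activation, 6 (*Nr4a1*, *Nr4a2*, *Nr4a3*, *Egr1*, *Fosb* and *Ier2*) were likewise higher in both libraries numbered 1 than in the other 4. The rest were not, and *Fos*, *Jun*, *Dusp1*, *Cd69*, *Myc* and *Egr2* were lower in control 1 than in control 2. For *Fos* these 2 controls were at 191 and 274 FPKM and for *Dusp1* at 192 and 250 FPKM. The sum over the 13 genes was 1855, 1254 and 909 FPKM in controls 1 to 3, against 2656, 1141 and 814 FPKM in *Junb*-deficient libraries 1 to 3, led by *Nr4a1*, *Fos* and *Dusp1*, of which *Nr4a1* was at 491 FPKM in control 1, 837 in *Junb*-deficient 1 and at most 82.6 in the others. Of those 13 genes *Egr3* rose between genotypes (log2 difference 0.86), none fell and 12 did not pass. Over all genes tested 4.56% were called in either direction. The *Egr3* call was lost with no filter on low values and on leaving out either control 2 or 3 or *Junb*-deficient library 1 or 3. *Cd69* and *Myc* had the next smallest p, with differences of -0.34 and 0.16. The list median was 0.11. Whether activation, the other cells or the handling of these libraries has a part in the levels of the 5 factors was not tested.

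**Figure D5:**
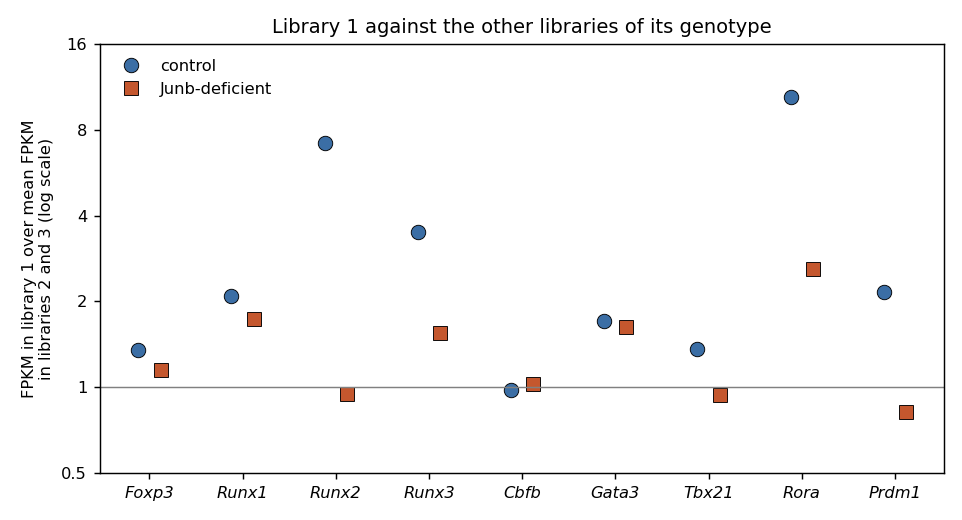
For each gene, the FPKM in library 1 divided by the mean FPKM of libraries 2 and 3 of the same genotype, on a log axis, for control (circles) and *Junb*-deficient cells (squares). The ratio is highest for *Rora* and *Runx2* in controls (10.4 and 7.18 times), and both points of *Cbfb* lie at 1.

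The order of levels, which FPKM allows to compare between genes because it is scaled by length, was led by *Foxp3* in all 6 libraries. In controls the means followed as *Cbfb* (57.5 FPKM), *Gata3* (44.8), *Runx1* (27.8), *Rora* (22.3), *Runx3* (18.6), *Runx2* (12.0), *Prdm1* (9.54) and *Tbx21* (5.88). *Foxp3* and *Cbfb* were the one neighbouring pair there whose ranges did not overlap. In *Junb*-deficient libraries *Gata3* (52.9 FPKM) came before *Cbfb* (47.3), which do not differ beyond their spread, and *Tbx21* (6.47) before *Prdm1* (4.83), with *Runx1* (29.5), *Runx3* (17.4), *Rora* (13.4) and *Runx2* (9.60) between. The ranges of *Foxp3* and *Gata3*, of *Cbfb* and *Runx1* and of *Runx1* and *Runx3* did not overlap. *Gata3* exceeded *Runx1* within each of the 6 libraries although their ranges overlapped.

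The genes whose levels followed each factor most closely were sought among 10583 protein-coding genes by the Pearson correlation of log2(FPKM + 1) over the 6 libraries, which is a description of 6 points that share the contrast between library 1 and the rest. *Foxp3* was most like *Slain2*, *Clcn5* and *Nr3c1*. For the genes named here r ran from 0.982 to 0.999. *Runx1* was most like *Tbc1d8*, *Sumo3* and *Trib1*, *Runx3* most like genes that include *Acly* and *Tab2*, *Gata3* most like *Bcor*, *Pag1* and *Kremen1* and *Rora* most like *Impad1*, *Klra17* and *Brca1*. In each of these genes both libraries numbered 1 were above the other 4. *Runx2* was most like *Irf5*, a factor of interferon and myeloid responses at 20.8, 9.50 and 10.5 FPKM in controls and 14.0, 14.5 and 13.1 FPKM in *Junb*-deficient libraries, followed by *Cdk6* and *Gas7*. *Cbfb* was most like *Sypl*, *Hsp90b1* and *Anapc5*, of which *Hsp90b1*, a chaperone of the endoplasmic reticulum, was at 156, 189 and 159 against 133, 113 and 141 FPKM. *Prdm1* was most like *Gna15*, a G protein subunit at 36.0, 13.4 and 10.9 against 6.70, 7.08 and 12.2 FPKM, then *Hip1*. *Tbx21* was most like *Eefsec*, *Mcts2* and *Ghdc*. With so few libraries, many genes reach a high value, and r was above 0.9 for between 58 genes (*Tbx21*) and 873 genes (*Gata3*).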

How the data were processed

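RNA of 6 libraries, 3 per genotype, was compared. The deposited values are FPKM per gene, for which the submitters' processing notes list TopHat2 (2.2.1), Cufflinks and mm9. The kit kept strand. Not given in the sources used here are the counting by strand, any scaling between libraries and the treatment of multiply mapped reads. Columns were matched to samples by name. Those of the libraries numbered 1, whose sample names lack a replicate number, were matched by elimination. The number of per-sample columns left unused was 0. Gene positions and exons came from the GENCODE annotation of mm9, which held all 37305 identifiers. Where a symbol occurred more than once, the entry with the highest mean was used.

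Genes averaging at least 1 FPKM (11781) entered a 2-sided limma test (limma 3.58.1, R 4.3.3) of log2(FPKM + 1) that modelled the mean-variance trend and had no block. P values were adjusted by Benjamini-Hochberg over the 11781 genes. A gene was called where p, not adjusted, was under 0.05 and the log2 difference exceeded 0.5, as in the study. Runx shares were compared with an exact permutation test, which cannot go below 0.1 for 3 against 3 libraries. Only the unpaired fit was tried on simulated data, drawn independently for each library, and its outcome is not reported here. Relative depth came from ratios to control 1 among values under 0.05 FPKM. FPKM hold no counts, so no counting intervals are given.

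The 9 genes and all lists were chosen with earlier results of these data known. The text names the 9 genes, *Junb*, the 3 genes with the smallest p of each list around them with *Bcl6*, *Ifng*, *Il4* and *Il17a*, the 3 most abundant genes of the marker lists it describes, and the 3 genes most like each factor. Values of some genes that these rules pick are not reported here. *Cd4*, *Stat5a*, *Rel*, *Il4ra*, *Stat6*, *Gzma*, *Lrrc32*, *Ctla4* and overlapping genes were added after their values were seen.

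To learn whether replicate numbers pair the samples, each library's deviations from its genotype mean were correlated across genes, which are not independent. Same-numbered libraries gave 0.57, 0.42 and 0.24 and all other pairs -0.53 to 0.41. The pairing is thus taken from the data, and a block for the number is the paired alternative. Further alternatives were a pseudocount of 0.1, no filter, a filter at a mean of 5 FPKM, scaling by median ratio or by quantiles, no trend, a run term (libraries with or without a lane suffix in the sample name), a loess correction for exon length (span 0.5, also with the block), leaving out each library, and leaving out both libraries numbered 1.

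Promoter windows came from RefSeq (GRCm38.p6, 32851 windows, all 9 genes matched) and the stretches shown were located in mm9 by exact match. Python 3.11.15 with pandas 2.3.3, numpy 2.4.6, matplotlib 3.10.9 and scipy 1.17.1 made the tables and figures.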

Additional observations from a re-analysis of the deposited data

How the results depend on the processing

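The 9 genes were compared in 17 other fits. *Prdm1* stayed negative in all of them, and the replicate block left each log2 difference of the 9 as it was and changed no call among them. The number of the 9 called was 1 in the unpaired fit, 0 with no filter or with median-ratio scaling, 2 (*Runx2* and *Rora*, higher) with both libraries numbered 1 left out, and 0 to 2 with 1 library left out, the 2 being without control 1. Over all genes, the 537 called became 1270 with the replicate block (422 rose and 848 fell, against 197 and 340), 1255 with the run term, 893 with the length correction and the block, 2308 with both libraries numbered 1 left out, and 299 to 2320 with 1 library left out, the highest without control 1 and the lowest without control 3. Median-ratio scaling gave 246 that rose and 280 that fell and quantile scaling 257 and 263. At an adjusted p under 0.05 there were 262 genes with both libraries numbered 1 left out, 7 with the run term, 1 each with the block, the block and length correction, or control 1 left out, and 0 in every other fit. Why these counts moved was not tested.

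With 1 library left out, the log2 difference ran from -0.019 to 0.22 for *Foxp3*, -0.13 to 0.47 for *Runx1*, -0.27 to 1.11 for *Runx2*, -0.23 to 0.66 for *Runx3*, 0.011 (without *Junb*-deficient 1) to 0.49 (without control 1) for *Gata3*, -0.25 to 0.37 for *Tbx21* and -0.59 to 1.03 for *Rora*, and among these values only those of *Runx2* and *Rora* without control 1 were called. *Rora* was at 0.023 with a pseudocount of 0.1, 0.024 with median-ratio scaling and, called, 0.60 without both libraries numbered 1. Differences in share of the Runx sum ran from -7.43 to 4.51 points for *Runx1*, -2.18 to 6.45 for *Runx2* and -3.36 to 3.08 for *Runx3* with 1 library left out. Without both libraries numbered 1 they were -9.74, 9.08 and 0.66 points, and *Runx3* was at 0.91 with the length correction. The block left all 3 mean share differences as they were. With 3 libraries a genotype and unknown read counts, the intervals limit what each comparison could resolve.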
